A study of Mus musculus with 3 samples.

Results

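The transcripts described here are 10 genes whose products are made in spermatids and carried by sperm: Prm1, Prm2, Tnp1, Tnp2, Odf1, Akap4, Smcp, Ldhc, Pgk2 and Gapdhs. They were taken by gene name from the array, which held 14 probes for them among 41174 probes that are not controls. RNA came from the utero-tubular junction, the passage between uterus and oviduct, of adult CD-1 female mice in estrus. A first group had mated with normal males, a second group had mated with vasectomized males, whose ejaculate carries seminal fluid without sperm, and the females of the last group had not mated. Each group was 1 pool of total RNA from 10 females on 1 single-colour Agilent array, so the values compare 3 pools, no test between groups was possible, and no value has an error between animals. How long after mating the tissue was taken is not stated in the labels used here. The question put to the data was whether RNA of sperm was seen after normal mating only.

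Spermatids replace their histones first with transition proteins (Tnp1, Tnp2) and then with protamines (Prm1, Prm2), which pack the sperm nucleus. The sperm tail is built on the outer dense fibres (Odf1), the fibrous sheath (Akap4) and the mitochondrial capsule (Smcp). Sperm also use their own forms of glycolytic enzymes, lactate dehydrogenase C (Ldhc), phosphoglycerate kinase 2 (Pgk2) and the spermatogenic glyceraldehyde-3-phosphate dehydrogenase (Gapdhs). Mature sperm carry remnants of spermatid RNA and make little or no new RNA. In bulk tissue, fewer cells of a type and less RNA per cell cannot be told apart.

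Promoters are shown for Gapdhs, the member above background after normal mating only, for Ldhc, the member past 2-fold against both other arrays, and for Prm1, whose probes disagreed. They run from 250 bases before to 50 after the start of the gene in RefSeq, build GRCm38.p6, and capitals mark the TGACTTCA motif.
Gapdhs promoter, chr7:30743632-30743931, minus strand: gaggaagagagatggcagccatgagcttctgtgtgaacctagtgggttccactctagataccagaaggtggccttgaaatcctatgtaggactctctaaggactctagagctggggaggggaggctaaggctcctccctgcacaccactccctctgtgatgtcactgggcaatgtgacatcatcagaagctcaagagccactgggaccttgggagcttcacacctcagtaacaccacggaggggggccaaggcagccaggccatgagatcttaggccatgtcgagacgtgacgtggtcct
Ldhc promoter, chr7:46861013-46861312, plus strand: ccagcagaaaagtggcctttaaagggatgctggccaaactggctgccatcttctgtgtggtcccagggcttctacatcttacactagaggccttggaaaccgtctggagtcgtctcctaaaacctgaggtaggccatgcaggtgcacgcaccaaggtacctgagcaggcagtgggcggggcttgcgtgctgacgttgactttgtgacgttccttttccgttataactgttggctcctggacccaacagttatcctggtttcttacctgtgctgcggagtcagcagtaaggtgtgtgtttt
Prm1 promoter, chr16:10796774-10797073, minus strand: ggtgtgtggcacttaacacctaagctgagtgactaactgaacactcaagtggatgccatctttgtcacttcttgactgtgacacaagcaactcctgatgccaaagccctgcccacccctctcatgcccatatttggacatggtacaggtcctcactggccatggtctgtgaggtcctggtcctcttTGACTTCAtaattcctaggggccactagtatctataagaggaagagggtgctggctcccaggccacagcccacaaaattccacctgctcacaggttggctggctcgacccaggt
Both strands were searched for TGACGTCA, the palindromic cAMP-response element bound by CREM in spermatids, for its variant TGACTTCA and for TATAAA. Of the 10 members, 9 had a window, in 12 windows in all, and Odf1 had none. TGACTTCA was in the Prm1 window, starting 64 bases before the start of the gene, and in 1.52% of 32851 windows of the same length. TATAAA was in the Prm2 window and in 13.6% of all windows, and TGACGTCA was in no member's window and in 1.79% of all windows. A match describes letters only.

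Signals are the processed signals of the scanning software, in linear units, and "well above background" is the software's own flag. Scaled levels are log2 of the signal over the 75th percentile of its array, and a ratio is the difference between the scaled levels of 2 arrays. A gene counts as different at 2-fold. Where only 1 of the 2 arrays had the probe well above background, the fold is a bound against the lowest signal that was well above background on the dimmer array. The 75th percentile was 709 on the normal mated array, against 295 for the vasectomized mated array and 876 for the not mated one, and no spot was saturated. The lowest signal well above background was 6.59 on the normal mated array, 5.80 on the vasectomized mated one and 13.2 in not mated females. After scaling these floors were -6.75, -5.67 and -6.05 on the log2 scale in the same order, so the normal mated array could show the dimmest transcripts. Scaling weighs on every ratio. Without it each log2 ratio changes by -0.30 in normal mated over not mated, by 1.26 in normal mated over vasectomized mated and by -1.57 in vasectomized mated over not mated females. Scaling to the spots for spike-in RNA changes them by about -0.48, 2.31 and -2.79. Directions below are those of the 75th percentile scaling, and a ratio of opposite sign and smaller size than such a change flips under that scaling. All 17 markers of the junction tissue (epithelium, smooth muscle and steroid receptors) were well above background on every array. Of these markers, 4 were past 2-fold higher and 7 lower, with a median log2 ratio of -0.92 in normal mated over not mated females. These are 23.5% and 41.2%, against 9.82% and 13.2% of all genes. The tissue markers thus moved with the groups as well, and their part in the members' values was not tested.

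Of the 10 members, the normal mated array showed 6 well above background, the vasectomized mated array showed 5 and the not mated array showed 4. These shares of 60%, 50% and 40% stand against 69.7%, 66.4% and 67% of all genes on the same arrays. Prm1, Tnp1, Tnp2 and Ldhc were well above background on all 3 arrays, a pattern shared by 62.3% of all 27666 genes. Prm2 was well above background on both mated arrays and not on the not mated array, as were 2.09% of all genes. Gapdhs alone was well above background on the normal mated array only, as were 2.62% of all genes. Odf1, Akap4, Smcp and Pgk2 were not well above background on any array, as were 26.7% of all genes. The pattern asked about was thus seen for 1 of 10 members. By the software's weaker flag (signal significantly above the local background) it was seen for Pgk2 and not for Gapdhs, and no member had it when signals had to exceed the highest negative control spot. Of the 2 Gapdhs probes, the one printed 10 times had the pattern by each of these rules, and the other by the well above background flag only. A Prm1 probe had it by the weaker flag, while other probes of that gene passed on all 3 arrays. By probe, 5 of 14 were well above background on all 3 arrays, against 61.2% of all probes, and 6 on none, against 26.3%. A further 2 probes, both for Gapdhs, were well above background on the normal mated array only, against 2.78% of all probes, and 1 on both mated arrays only, against 1.97%.

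**Figure D1:**
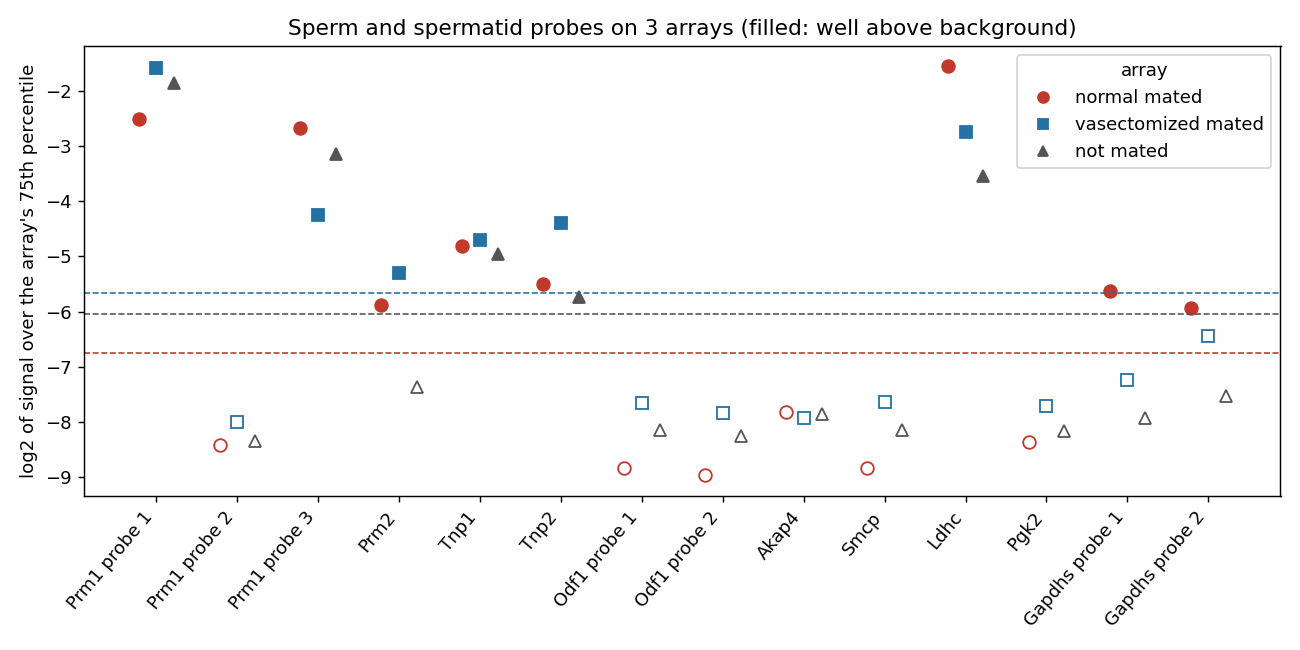
Scaled level of each of the 14 member probes on the normal mated, vasectomized mated and not mated arrays, as log2 of the signal over the 75th percentile of the array, with Prm1 probes numbered along the gene. Filled points were well above background, open points were not, and each dashed line is the lowest level well above background on the array of its colour. The Odf1, Akap4, Smcp and Pgk2 points are all open, and the Gapdhs points are filled for the normal mated array only.

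Gapdhs was measured by 2 probes, both in the gene on the minus strand of chromosome 7. The probe at chr7:27667701-27668135 (build mm7, the build the array files name) was printed 10 times on each array. Its genomic span of 435 bases and the 838 bases of the other probe are longer than the 60 bases that most probes cover, and exon annotation of this build was not used here. Its mean signal was 14.4 on the normal mated array, 1.94 on the vasectomized mated one and 3.57 in not mated females. On the normal mated array 1 of the 10 spots had an outlier flag and was left out, and all 9 others were well above background, with signals of 11.4 to 17.8 and an SD of 0.25 on the log2 scale. On the vasectomized mated array none of the 10 spots was well above background, with signals of 1.30 to 3.19, and on the not mated array none was, with signals of 2.83 to 4.71. These ranges are of unscaled signals, and how often other probes printed 10 times have ranges apart between arrays was not counted. Spots of 1 array share their RNA, so the ranges cover printing, hybridisation and scanning and not animals.

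The other Gapdhs probe, at chr7:27674690-27675527 (mm7), had signals of 11.7 on the normal mated array, 3.41 on the vasectomized mated one and 4.73 in not mated females. It too was well above background on the normal mated array only. By the weaker flag it passed on all 3 arrays, while of the spots of the probe with 10 spots, 5 of 10 passed on the vasectomized mated array and 5 of 10 on the not mated array, which was counted as not passing because over 5 were required. As bounds, the probe with 10 spots was at least 1.34-fold higher on the normal mated array than on the not mated array and at least 1.03-fold higher than on the vasectomized mated array. The other probe was at least 1.09-fold higher than on the not mated array, and against the vasectomized mated array it gave no bound above 1. Against the not mated array both probes were higher, and no bound reached 2-fold.

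The Gapdhs levels can also be set beside the floors of the other arrays, whose part in this pattern was not tested. At the scaled level of the normal mated array, the probe with 10 spots would have read 17.7 on the not mated array, just above 17.3, the highest signal there that was not well above background. The measured signal was 3.57. On the vasectomized mated array it would have read 5.98, between the lowest signal well above background, 5.80, and the highest one that was not, 8.09, and the measured signal was 1.94. The second probe would have read 4.85 on the vasectomized mated array, below that floor, where the measured signal was 3.41. On the not mated array it would have read 14.4, between 13.2 and 17.3, and the measured signal was 4.73.

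**Figure D2:**
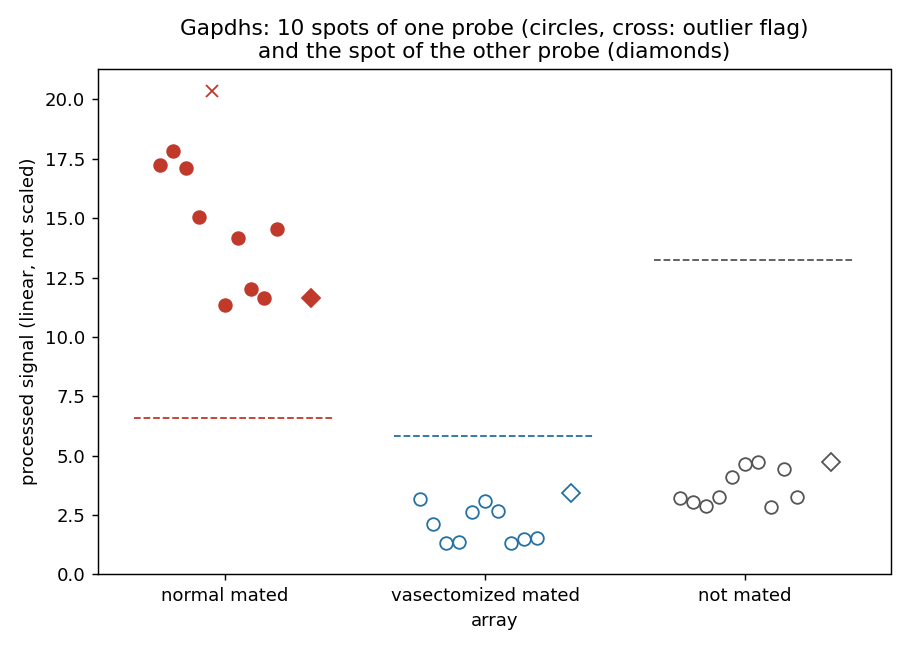
Processed signal (linear, not scaled) of the 10 spots of one Gapdhs probe (circles, with a cross for the spot that had an outlier flag) and of the single spot of the other probe (diamonds) on each array. Filled points were well above background, and each dashed line is the lowest signal well above background on that array. Spots on the normal mated array lie at 11.4 and above, and those on the vasectomized mated and not mated arrays at 4.71 and below.

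Ldhc, the lactate dehydrogenase of spermatocytes, spermatids and sperm, had the largest ratio of any member in normal mated over not mated females. Its probe at chr7:43054105-43054164 (mm7, plus strand) had signals of 243 on the normal mated array, 44.1 on the vasectomized mated one and 75.4 in not mated females. All were well above background, so the probe also gave signal in females that had not mated. The level was 3.97-fold higher in normal mated than in not mated females, a log2 ratio of 1.99, and 2.29-fold higher in normal mated than in vasectomized mated females, a log2 ratio of 1.20. In vasectomized mated over not mated females the log2 ratio was 0.80, short of 2-fold. The ratio over the not mated array stayed past 2-fold under every alternative setting tried, while that over the vasectomized mated array was 0.46 after normexp background correction. In the gene table Ldhc lies next to Ldha.

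Of 10 widely expressed relatives of sperm enzymes, 3 were past 2-fold higher and 1 lower in normal mated than in not mated females, the higher ones being Ldha, Pgk1 and Gapdh. These are 30% and 10%, against 9.82% and 13.2% of all genes. Ldha, the lactate dehydrogenase of most tissues, had signals of 78200 on the normal mated array, 32316 on the vasectomized mated one and 29621 in not mated females, with a log2 ratio of 1.70 in normal mated over not mated females. Its ratio in normal mated over vasectomized mated females was 0.01. Ldhb, the other common somatic form, had -0.29 and 0.30 in these comparisons, short of 2-fold. Pgk1 had signals of 83244, 40118 and 23147 on the normal mated, vasectomized mated and not mated arrays, and Gapdh had 55100, 4603 and 23566. Their log2 ratios in normal mated over not mated females were 2.15 and 1.53, and in normal mated over vasectomized mated females -0.21 and 2.32. The part that binding of somatic transcripts to the Ldhc or Gapdhs probes has in these values was not tested, since the probe sequences were not used here.

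Pgk2, the phosphoglycerate kinase of late spermatogenesis, had signals of 2.14 on the normal mated array, 1.41 on the vasectomized mated one and 3.03 in not mated females (chr17:38247663-38247722, mm7, minus strand). Negative control spots, which carry no mouse sequence, had a median of 1.46 on the normal mated array, 1.36 on the vasectomized mated one and 2.93 in not mated females. The Pgk2 signals were thus close to those of the negative controls. By the weaker flag Pgk2 passed on the normal mated array only.

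The protamines and transition proteins were well above background after mating with vasectomized males as well as with normal males. Prm1 lies on the minus strand of chromosome 16 and had 3 probes, named here in the direction of transcription. The first, at chr16:10474052-10474203 (mm7), had signals of 125 on the normal mated array, 99.5 on the vasectomized mated one and 244 in not mated females, all well above background. Its log2 ratio was -0.66 in normal mated over not mated females, -0.93 in normal mated over vasectomized mated females and 0.27 in vasectomized mated over not mated females, none past 2-fold.

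The last Prm1 probe, at chr16:10473905-10473964 (mm7), had signals of 111 on the normal mated array, 15.5 on the vasectomized mated one and 99.4 in not mated females. All 3 were well above background. Its log2 ratio was 0.46 in normal mated over not mated females, 1.58 in normal mated over vasectomized mated females and -1.12 in vasectomized mated over not mated females. In every comparison its sign was opposite to that of the first probe.

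Between them lies the middle probe, at chr16:10473981-10474040 (mm7), 11 bases after the first probe and 16 before the last. Its signals were 2.08 on the normal mated array, 1.15 on the vasectomized mated one and 2.67 in not mated females, and none was well above background. No direction can be given for Prm1 from 3 probes that differ in this way.

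**Figure D3:**
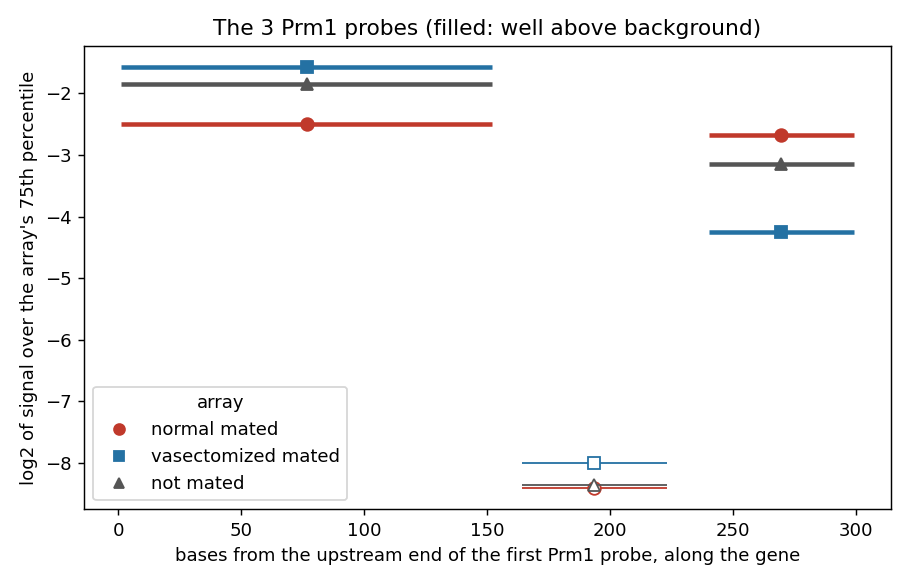
Scaled level (log2 of the signal over the 75th percentile of the array) of the 3 Prm1 probes against their position in bases along the gene, where each bar is the genomic span of a probe and filled points were well above background. Of the 3 arrays the normal mated one has the lowest level of the first probe and the highest level of the last probe, and the middle probe is not well above background on any array.

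Prm2, the protamine cut from a longer precursor, was the 1 member well above background on both mated arrays and not in females that had not mated. By the weaker flag, and by the 95th percentile of the negative control spots, it was above background on all 3 arrays. Its probe at chr16:10469139-10469198 (mm7, minus strand) had signals of 12.1 on the normal mated array, 7.51 on the vasectomized mated one and 5.32 in not mated females. It was at least 1.13-fold higher in normal mated and at least 1.68-fold higher in vasectomized mated than in not mated females, and its log2 ratio in normal mated over vasectomized mated females was -0.58. The last of these is 0.69 without scaling and 1.74 with spike-in scaling, so its direction rests on the scaling. At the scaled level of the normal mated array it would have read 14.9 on the not mated array, between 13.2, the lowest signal well above background there, and 17.3, the highest that was not.

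Tnp1, the first transition protein, had signals of 25.4 on the normal mated array, 11.4 on the vasectomized mated one and 28.4 in not mated females (chr1:73257121-73257180, mm7, minus strand). Its log2 ratios were 0.14 in normal mated over not mated, -0.11 in normal mated over vasectomized mated and 0.25 in vasectomized mated over not mated females. These were the smallest ratios under this scaling among the members well above background on both arrays, though in normal mated over vasectomized mated females spike-in scaling gave 2.21.

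Tnp2, which lies with Prm1, Prm2 and Prm3 in 1 cluster, had signals of 15.6 on the normal mated array, 14.0 on the vasectomized mated one and 16.4 in not mated females (chr16:10466155-10466214, mm7, minus strand). After scaling it was 2.15-fold lower in normal mated than in vasectomized mated females, a log2 ratio of -1.11, and 2.54-fold higher in vasectomized mated than in not mated females, a log2 ratio of 1.34. The ratio in normal mated over not mated females was 0.24. The unscaled signals of the 3 arrays were close to each other, and without scaling the log2 ratio was 0.16 in normal mated over vasectomized mated and -0.23 in vasectomized mated over not mated females.

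The 3 tail genes were not well above background on any array. Odf1, the major outer dense fibre protein, had signals of 1.54 on the normal mated array, 1.47 on the vasectomized mated one and 3.06 in not mated females by its probe at chr15:38330039-38330097 (mm7). The other Odf1 probe, at chr15:38330122-38330181, gave 1.41, 1.29 and 2.85 in the same order. Akap4, the anchoring protein that is the main part of the fibrous sheath, had 3.13 on the normal mated array, 1.20 on the vasectomized mated one and 3.75 in not mated females (chrX:5510916-5510975, mm7, plus strand). Smcp, the cysteine-rich protein of the mitochondrial capsule, had 1.54, 1.47 and 3.07 in the same order (chr3:92689997-92690056, mm7, minus strand). For Odf1 and Smcp these signals followed the medians of the negative control spots of each array. Akap4 passed the weaker flag on the normal mated and the not mated array.

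Counted by comparison, 6 members could be set between normal mated and not mated females. Of these 1, Ldhc, was past 2-fold higher and none was lower, against 9.82% of 19302 genes higher and 13.2% lower. Between normal mated and vasectomized mated females 5 members were compared, 1 was past 2-fold higher (Ldhc) and 1 lower (Tnp2), against 14.7% of 18989 genes higher and 28% lower. Between vasectomized mated and not mated females 5 were compared, of which 1 (Tnp2) was past 2-fold higher and none lower, against 25.8% of 19311 genes higher and 16.5% lower. The median log2 ratio of the members was 0.16, -0.58 and 0.75 in these comparisons, and that of all genes -0.05, -0.27 and 0.18. The members' medians against not mated females include bounds, and 0.75 is itself the Prm2 bound. With only probes well above background on both arrays 4 members were left in each comparison with not mated females. Their medians were 0.19 for normal mated and 0.53 for vasectomized mated females. A member that is dim had no value here unless at least 1 array showed it, so these counts leave out the 4 genes seen on none. Gapdhs was compared only in normal mated over not mated females. Against the vasectomized mated array the Gapdhs probe used here gave no bound above 1. Between vasectomized mated and not mated females neither array showed it well above background. With spike-in scaling all 6 members then compared were past 2-fold higher in normal mated than in vasectomized mated females, as were 15988 of 19472 genes compared. Of all genes past 2-fold, 98.7% were then higher, against 34.5% under the 75th percentile. In normal mated over not mated females the share higher among all genes past 2-fold was 42.7% and ran from 17.4% to 59.4% over the settings, and in vasectomized mated over not mated females it was 61.0% and ran from 1.13% to 77.1%. The comparisons share arrays and are not independent of each other.

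**Figure D4:**
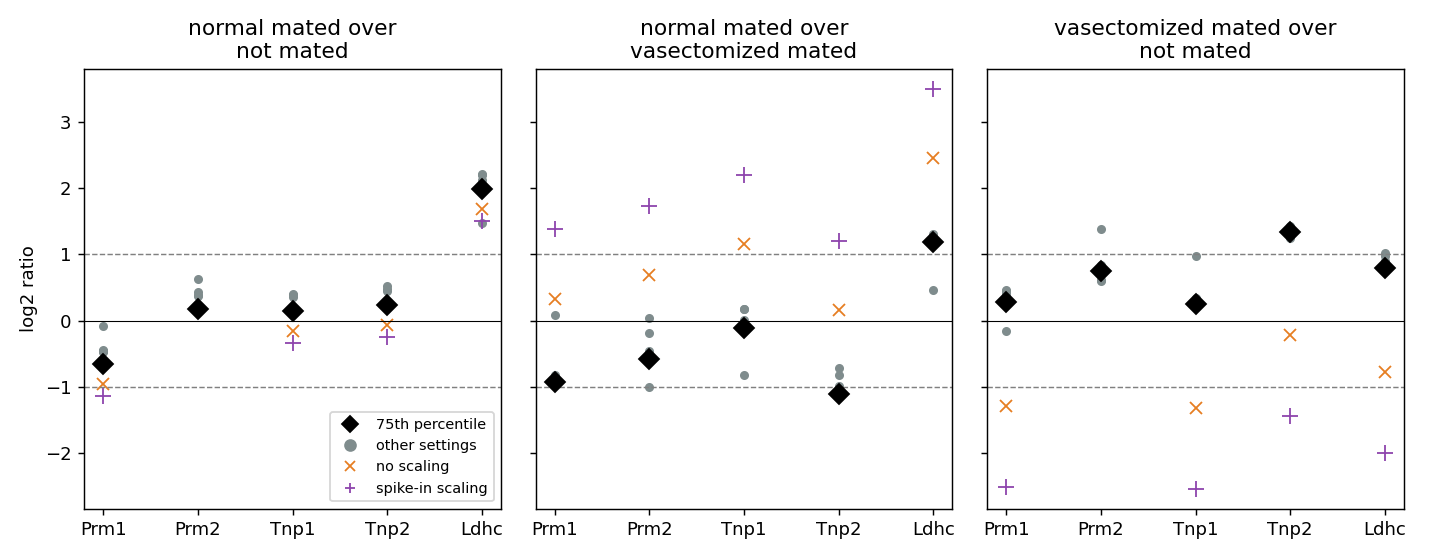
Log2 ratios of 5 members in each comparison under the 75th percentile scaling (diamonds), without scaling (crosses), with scaling to spike-in RNA (plus signs) and under the other settings (dots), with dashed lines at 2-fold. Prm2 values against not mated females are bounds, points are missing where no value above its floor was left, and the settings without a filter or with only probes well above background on both arrays are not drawn. Ldhc stays above the upper dashed line in normal mated over not mated females, and the Tnp2 ratios that involve the vasectomized mated array change sign without scaling and with spike-in scaling.

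A wider set held 139 other sperm and spermatid genes, many of which other tissues express too. The normal mated array showed 96 of them well above background, the vasectomized mated array 83 and the not mated array 80, and 73 were so on all 3. The shares are 69.1%, 59.7% and 57.6%, against 69.7%, 66.4% and 67% of all genes. In normal mated over not mated females 20 of 86 compared were past 2-fold higher and 8 lower, with a median of 0.31, and in vasectomized mated over not mated females 28 of 90 were higher and 8 lower, with a median of 0.50. In normal mated over vasectomized mated females 14 of 90 were higher and 25 lower, with a median of -0.14. As shares these are 23.3% higher and 9.30% lower in normal mated over not mated females, against the 9.82% and 13.2% of all genes. In normal mated over vasectomized mated females they are 15.6% higher and 27.8% lower, close to the 14.7% and 28% of all genes. In vasectomized mated over not mated females they are 31.1% higher and 8.89% lower, against 25.8% and 16.5% of all genes. Without scaling normal mated over vasectomized mated females had 50 higher and 4 lower, vasectomized mated over not mated females 5 higher and 47 lower, and normal mated over not mated females 16 higher and 12 lower. Over all genes the same setting gave 9661 higher and 996 lower, 801 higher and 12113 lower, and 1344 higher and 4127 lower in these comparisons.

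Of the 139 genes, 12 were well above background on the normal mated array only, 8.63% against 2.62% of all genes. They were Prm3 and H1f7 (sperm chromatin), Tekt3 (tail), Zpbp (acrosome), Catsper1, Catsper4 and Slc9c1 (sperm ion transport), and Hspa1l, Hsf2, Actl7b, Spata9 and Tex22. Most were near the floor. Only Tekt3 and Spata9 had a scaled level on the normal mated array above the highest level not well above background on both other arrays, as did 97 of the 725 genes of this pattern overall. Tekt3, a tektin of flagella and cilia, had signals of 25.7 on the normal mated array, 1.44 on the vasectomized mated one and 3.03 in not mated females. Spata9 had 20.2, 3.20 and 6.26 in the same order. Prm3, the neighbour of Prm2, had 7.56 on the normal mated array, 1.38 on the vasectomized mated one and 9.07 in not mated females, so its unscaled signal was highest on the not mated array, where it was not well above background, while its scaled level was -6.55 on the normal mated and -6.59 on the not mated array.

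**Figure D5:**
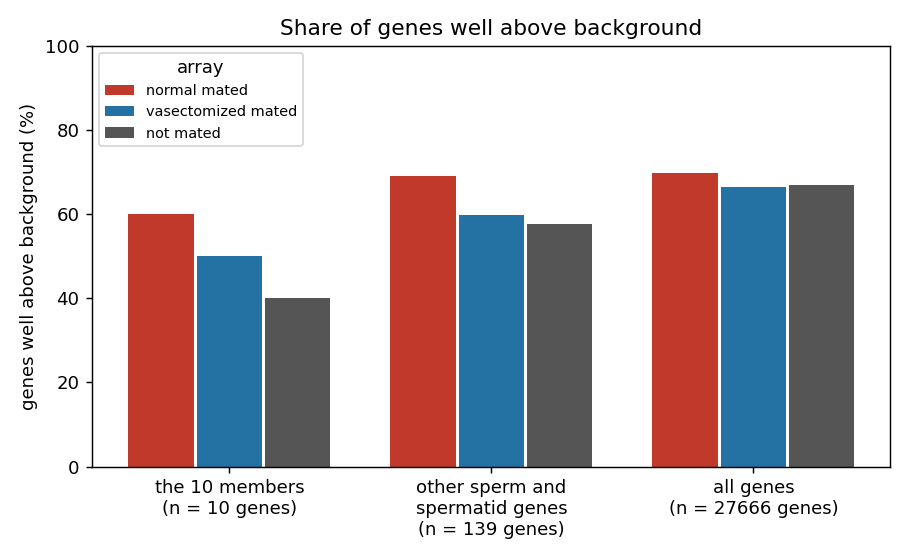
Share of genes well above background on the normal mated, vasectomized mated and not mated arrays, in percent, for the 10 members, 139 other sperm and spermatid genes and all 27666 genes. The members lie at 60%, 50% and 40%, and the share is highest on the normal mated array in all 3 sets.

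By role, 10 of 23 tail genes of the wider set that could be compared were past 2-fold higher and 1 was lower in normal mated than in not mated females. These are 43.5% and 4.35%, where 9.82% of all genes were higher and 13.2% lower. Between normal mated and vasectomized mated females 5 of 26 were higher and 7 lower, or 19.2% and 26.9%, close to the 14.7% and 28% of all genes. In vasectomized mated over not mated females 9 of 26 were higher and 3 lower, or 34.6% and 11.5%, against 25.8% and 16.5% of all genes. Against not mated females, in those mated with normal males Spata18 was 4.41-fold, Akap14 4.38-fold, Spag16 4.17-fold and Tekt1 3.83-fold higher. Tektins and many axoneme proteins are also part of motile cilia, which line the oviduct, and Foxj1, the regulator of ciliated cells, was 3.67-fold higher in the same comparison, whereas 7 of the 17 junction markers were past 2-fold lower. The part of ciliated cells in these counts was not tested.

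Of 8 other energy genes 4 were past 2-fold higher and 1 was lower in normal mated than in not mated females. These are 50% and 12.5%, against 9.82% and 13.2% of all genes. Eno4, the enolase of the sperm tail, was 6.73-fold higher, with signals of 343 on the normal mated array, 45.1 on the vasectomized mated one and 62.9 in not mated females. Slc2a3, a glucose transporter of sperm and other cells, was 4.80-fold lower. In the same comparison, of 4 nuclear packaging genes none was higher and 1 (25%) was lower. Of 12 genes of channels and signalling none was higher and 2 (16.7%) were lower. Of 24 spermatid regulators 3 (12.5%) were higher and 1 (4.17%) was lower. In normal mated over vasectomized mated females 5 of 8 other energy genes (62.5%) were past 2-fold higher and 1 (12.5%) was lower. The shares of all genes are 14.7% and 28%. There 2 of 4 nuclear packaging genes (50%) and 2 of 12 genes of channels and signalling (16.7%) were lower and none higher. Of the 24 regulators compared 2 (8.33%) were higher and 6 (25%) lower.

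Of 15 genes of the acrosome, the vesicle whose contents sperm release at the egg, 3 were past 2-fold higher and 2 lower in normal mated than in not mated females. These are 20% and 13.3%, against 9.82% and 13.2% of all genes. In normal mated over vasectomized mated females 2 of 16 were higher and 7 lower. These are 12.5% and 43.8%, against 14.7% and 28% of all genes. Dkkl1 was 8.21-fold and Calr3 7.58-fold higher in normal mated than in not mated females. Spaca7 was 15.4-fold lower, with signals of 80.4 on the normal mated array, 46.0 on the vasectomized mated one and 1531 in not mated females. Dkkl1 and Calr3 were also 3.85-fold and 5.10-fold higher in vasectomized mated than in not mated females. Some genes were highest in vasectomized mated females: Ddx25, a helicase of spermatids, was 16.3-fold, Usp26 16.0-fold and Oaz3 18.1-fold lower in normal mated than in vasectomized mated females. On the normal mated array Oaz3 had a signal of 6.76, near 6.59, the lowest signal well above background there. Ddx25 and Usp26 each had 2 probes, and the other probe gave no ratio.

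Other cells and fluids moved with the groups too, and their part in the members' values was not tested. Of 11 Y-linked genes 1, or 9.09%, was well above background, Zfy1, on every array. Its signals were 18.7 on the normal mated array, 17.97 on the vasectomized mated one and 25.3 in not mated females, while Xist had 8675, 6800 and 14738. Of 22 genes of the male accessory glands and epididymis, the normal mated array showed 6 well above background, the vasectomized mated array 5 and the not mated array 3, or 27.3%, 22.7% and 13.6%. The shares of all genes well above background on these arrays were 69.7%, 66.4% and 67%. Svs5, a seminal vesicle secretory protein, had signals of 23.2 on the normal mated array, 35.2 on the vasectomized mated one and 3.60 in not mated females, where it was not well above background. Crisp1, a protein that the epididymis adds to sperm, had 137 on the normal mated array, 9.63 on the vasectomized mated one and 2.93 in not mated females. It was well above background on both mated arrays only and was 5.94-fold higher in normal mated than in vasectomized mated females.

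Of 14 oocyte genes the normal mated array showed 9 well above background, the vasectomized mated array 11 and the not mated array 6, which is 64.3%, 78.6% and 42.9% against 69.7%, 66.4% and 67% of all genes. The egg gene Gdf9 had signals of 258, 341 and 81.2 in that order. The leukocyte gene S100a9 had 39458 on the normal mated array, 24510 on the vasectomized mated one and 97.9 in not mated females. Of 11 leukocyte genes, 5 were past 2-fold higher and 1 lower in normal mated than in not mated females, 1 was higher and 3 lower in normal mated than in vasectomized mated females, and 7 were higher and none lower in vasectomized mated than in not mated females. The shares of all genes higher are 9.82%, 14.7% and 25.8% in these comparisons, and the shares lower are 13.2%, 28% and 16.5%.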

How the data were processed

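Total RNA of the junction from 3 pools of 10 females was labelled with Cy3 after oligo-dT priming and hybridised to 1 array each, per the labels' protocols. The deposited intensity values are processed signals of Agilent Feature Extraction, background-corrected within each array, with no scaling from array to array, as the file headers show, per the file headers version 10.5.1.1 (9.5.3 per the submitters' processing notes). The p-values and the other deposited columns, such as the software's flags, come from the same software, per the file headers; no p-value was used as a result. An array carries 45018 spots, 43379 of them for mouse transcripts rather than controls. Groups were taken from the mating labels.

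Here, spots with outlier flags were left out (98 in the normal mated, 69 in the vasectomized mated and 93 in the not mated sample), log2 signals were averaged over the spots of a probe and the 75th percentile of each array was subtracted. Where a gene had several probes, the one with the highest mean signal was used for its ratios, preferring those that some array showed well above background. For background status a gene counted as well above background on an array where any of its probes was. Probes were named through RefSeq (GRCm38.p6): 23082 by accession, 6582 by symbol and 3073 by synonym, and 8437 kept the name in the files, for 27666 names. Probe coordinates are those of the array design on mm7. The median SD between replicate spots on the log2 scale was 0.0537 for the normal mated, 0.0644 for the vasectomized mated and 0.0573 for the not mated array, which covers printing and scanning only. With 1 array per group the number of arrays limits the precision.

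The members, the gene lists and the settings were chosen with earlier results of these data known, so no count here is independent support. The genes named are all members by every probe. Of the wider lists they are those well above background on the normal mated array only. Also named are those among the 4 with the largest ratio past 2-fold per list and comparison. The rule further named the somatic relatives Ldha, Pgk1 and Gapdh, and Y-linked genes and Xist as a check of male cells. Ldhb lies outside this rule, and so does Foxj1, which was named after its value was seen. Alternatives were quantile and cyclic loess normalization, normexp (offset 50), median scaling, no scaling, spike-in scaling (added after the data were seen), no filter on dim probes, both arrays well above background, the mean over probes, and other definitions of background. The counting step was tested on simulated data. Tools were R 4.3.3, limma 3.58.1, data.table (version 1.17.8), Python 3.11.15, pandas 2.3.3, numpy 2.4.6 and matplotlib 3.10.9.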

Additional observations from a re-analysis of the deposited data

How the results depend on the processing

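No paired analysis was possible because each group has 1 array, and for the same reason no array could be left out as a replicate. The count of members above background on the normal mated array only, 1 with the software's stricter flag, was 0 when signals had to exceed the highest negative control spot, and 2 (Gapdhs and Prm2) when the vasectomized mated array was left out of the rule, an alternative added after seeing the data. With the weaker flag or the 95th percentile of negative control spots the count was also 1, but the gene was Pgk2 and not Gapdhs, and 7 members in place of 4 were above background on the not mated array. The number of members past 2-fold in normal mated over not mated females, 1 of 6 compared, was 3 of 10 without the filter on dim probes. It was 2 of 4 with spike-in scaling. Over all genes these settings gave 4438 of 19302, 6195 of 27634 and 6289 of 18967 in that order. In normal mated over vasectomized mated females, 2 of 5 members became 1 of 6 with quantile normalization or cyclic loess. They became 1 of 5 with median scaling, 4 of 10 without the filter and 6 of 6 with spike-in scaling. Over all genes 8104 of 18989 became 7523 of 19324 with quantile normalization, 7770 of 19640 with cyclic loess and 7949 of 19067 with median scaling. The all-gene count was 14395 of 27641 without the filter and 16205 of 19472 with spike-in scaling. In vasectomized mated over not mated females, 1 of 5 members became 3 of 5 with normexp and 3 of 10 without the filter. They became 2 of 4 without scaling and 4 of 4 with spike-in scaling. Over all genes 8184 of 19311 became 7494 of 18405 with normexp and 10679 of 27651 without the filter. The all-gene count was 12914 of 18941 without scaling and 16930 of 18665 with spike-in scaling. The Tnp2 log2 ratio changed sign in normal mated over vasectomized mated females (0.16 without scaling, 1.21 with spike-in scaling) and in vasectomized mated over not mated females (-0.23 and -1.45). The wider set's count in normal mated over vasectomized mated females, 39 of 90, was 77 of 139 without the filter and 87 of 96 with spike-in scaling. In vasectomized mated over not mated females 36 of 90 became 69 of 81 with spike-in scaling. The all-gene count in normal mated over not mated females, 4438 of 19302, became 2300 of 19751 with normexp. Scaling also moved the all-gene median log2 ratio: in normal mated over not mated females from -0.05 to 0.15 with the median and -0.55 with spike-in scaling, in normal mated over vasectomized mated females from -0.27 to 0.97 without scaling and 2.04 with spike-in scaling, and in vasectomized mated over not mated females from 0.18 to -1.43 and -2.68. With spike-in scaling Prm1, Prm2 and Tnp1 also lay past 2-fold on the other side in normal mated over vasectomized mated females (1.38, 1.74 and 2.21), as did Prm1, Tnp1 and Ldhc in vasectomized mated over not mated females (-2.52, -2.54 and -2.00). The spike-in median was 4976 on the normal mated, 10305 on the vasectomized mated and 4407 on the not mated array. The cause of these changes was not tested.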
